A study of Mus musculus with 8 samples.

Results

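Primitive endoderm and endoderm genes were examined as a set of 31 members, given as a list of symbols, among the 54232 genes counted in mouse E14 embryonic stem cells. All 31 symbols matched 1 Ensembl identifier each in the GENCODE annotation of GRCm38 (mm10). RNA was sequenced in 2 experiments with 2 libraries per group, all of E14 cells (strain label 12910la) grown in 15% serum with 10 ng/ml LIF, the cytokine that holds stem cells undifferentiated. One set Ssrp1_KO cells, edited at Ssrp1 by Cas9, against Ssrp1_Control cells, and the other set Usp7_KD cells against Usp7_Control cells. For the Usp7 experiment the labels give 1 treatment for both groups: wild-type cells took up 1000 ng of pSuper puro plasmid, the vector of the shRNA to Usp7, then were selected from 24 h on with puromycin (1 ug/ml, 3 days). Both kinds of control have the genotype label control, and the treatment text speaks of wild-type cells. It does not say how many clones make up the knockout, whether its replicates are the same clone, or which insert, if any, the plasmid of the Usp7_Control cells carried.

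Primitive endoderm is the extraembryonic layer that forms beside the pluripotent epiblast in the blastocyst. FGF4 from the epiblast acts through FGF receptors and ERK on precursors that turn on Gata6, then Pdgfra, Sox17, Gata4 and Sox7. The layer later gives visceral endoderm, an absorptive epithelium that makes apolipoproteins and transthyretin, and parietal endoderm, which lays down a thick basement membrane of laminin, collagen IV and Sparc. Stem cells in serum with LIF are known to hold rare cells that express such genes. In bulk libraries, more cells of a type and more RNA per cell cannot be told apart.

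The libraries held 15879056 to 18361130 counts and levels are given as CPM, depth-scaled counts with TMM factors set within an experiment. All 18 listed pluripotency genes were detected in each library, with a summed level of 6769 to 11431.8 CPM, against 2.7 to 7.02 CPM for the 6 visceral endoderm members. For the targeted Ssrp1 transcript, the libraries labelled knockout gave 399.6 CPM (replicate 1) and 119.7 CPM (replicate 2), and their controls 423.2 and 460 CPM (edgeR adjusted p = 0.41), so replicate 1 was at nearly the control level. Usp7 gave 116.7 and 128.4 CPM after knockdown and 385.6 and 380.6 CPM without (adjusted p = 0.001245). The share of counts on mitochondrial genes was 0.732% and 0.776% in Ssrp1_Control against 7.31% and 2.81% in Ssrp1_KO, and 1.67% to 2.44% in the Usp7 libraries. The summed level of 11 matched 2-cell-like genes was 61 and 160.7 CPM in Ssrp1_Control and 554.3 and 1492 CPM in Ssrp1_KO, where 10 of 10 tested rose. It was 4.95 and 5.34 CPM in Usp7_Control and 34.25 and 27.3 CPM in Usp7_KD, where 6 of 7 tested rose. The part of either measure in the changes below was not tested. Nothing in the labels says that replicates were separate cultures, so the p-values reflect sample-to-sample spread that could be technical alone.

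In the libraries labelled Ssrp1 knockout, Dab2 was the single member of 21 tested to pass (4.76%, against 3.71% of all genes tested). That share is near the background. Dab2 rose 7.29-fold. Its call ended when either control library was left out. The primitive endoderm regulators Gata4, Gata6, Sox17 and Foxa1, the receptor gene Pdgfra, both collagen IV genes and Sparc were also higher in both of these libraries than in both controls, by 1.87-fold to 7.08-fold, but none passed the adjusted threshold. Of all genes tested, 27.3% lay higher in this way, and Dab2, Gata6, Sox17 and Foxa1 met the count filter mostly through the libraries labelled knockout. Hnf4a and Pth1r lay lower in both (log2 changes -0.85 and -0.59), and Lamc1 was near 0. In the Usp7 knockdown 0 of 22 tested members passed the test, against 2.99% of all genes tested. Sparc came closest there, at 1.71-fold (adjusted p = 0.051). A member was called at an adjusted p under 0.05, by edgeR's quasi-likelihood test with Benjamini-Hochberg adjustment over all genes tested.

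Many members were too low to judge. In the Ssrp1 experiment 10 of 31 had too few counts for the test (Sox7, Foxa2, Ihh, Dkk1, Ttr, Apoa1, Apob, Afp, Thbd and Fxyd3), with at most 18 counts in any library. In the Usp7 experiment 9 of 31 did (Sox17, Foxa2, Dkk1, Ttr, Apoa1, Afp, Cubn, Fxyd3 and Plat), with at most 22. Of the 31, 18 were tested in both experiments and 6 in neither: Foxa2, Dkk1, Ttr, Apoa1, Afp and Fxyd3. Of the 21 members tested in the Ssrp1 experiment, Gata6, Sox17, Foxa1, Dab2 and Cited1 had fewer than 10 counts in a control library. These 5 passed the filter mostly through the libraries labelled knockout, so counts over the tested members favour higher values.

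**Figure D1:**
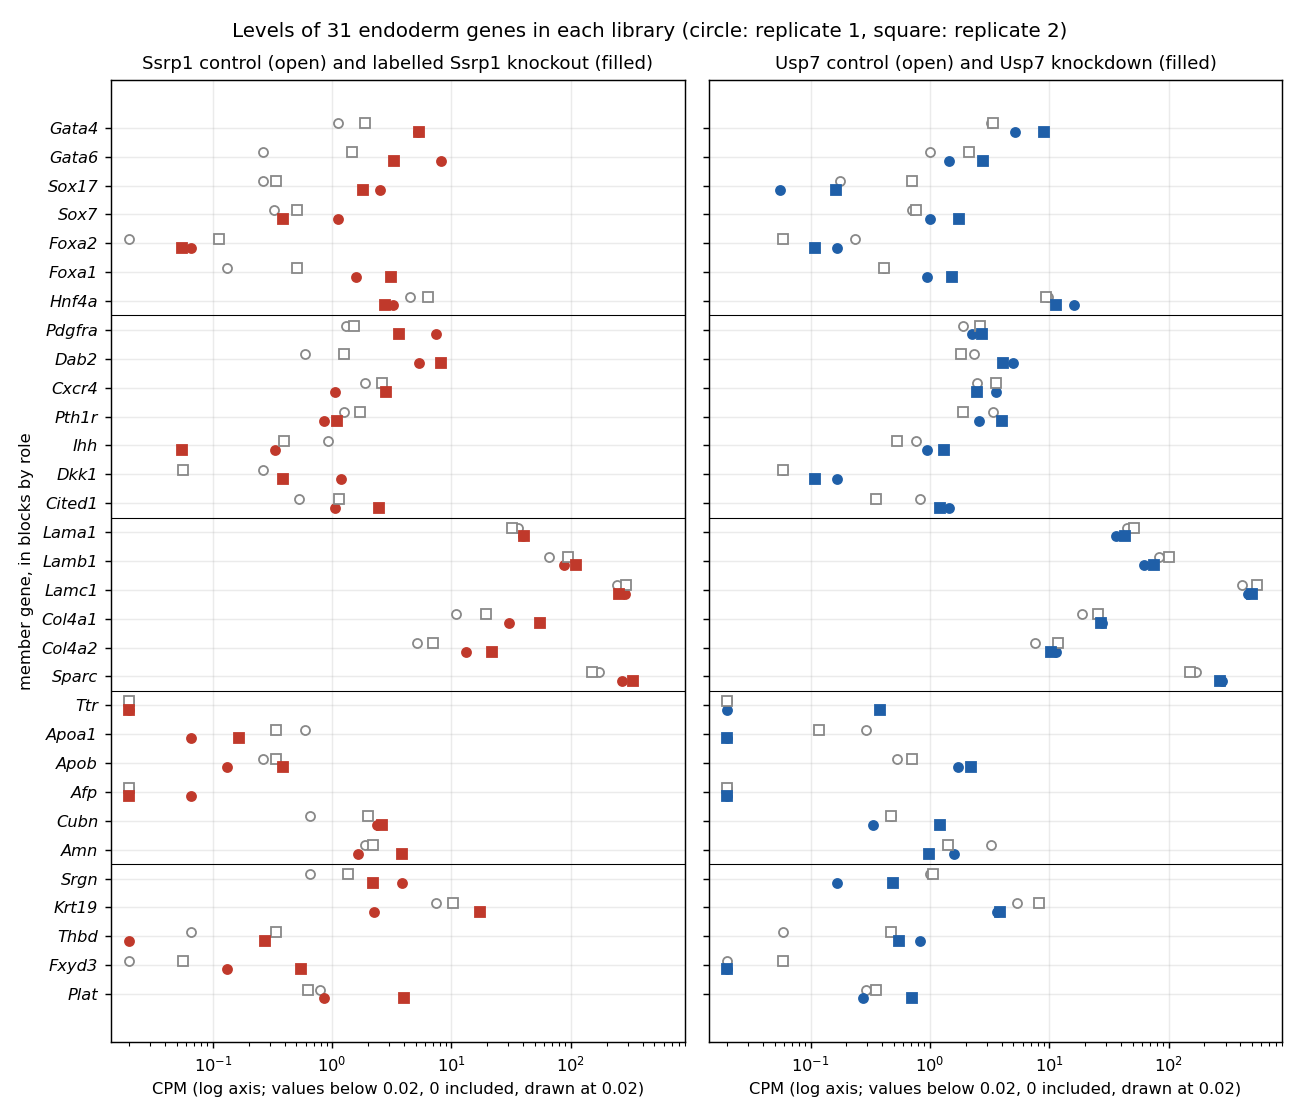
CPM of all 31 members in each library, on a log axis, with the Ssrp1 experiment on the left and the Usp7 experiment on the right; open symbols are controls, filled symbols the targeted cells, circles replicate 1 and squares replicate 2. The laminin genes, collagen IV genes and Sparc lie above 5 CPM in every library, while most transcription factor and visceral endoderm members lie below 10 CPM.

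Dab2 encodes an endocytic adaptor that binds megalin-type receptors and is a classical marker of extraembryonic endoderm (chromosome 15, 6299788 to 6440712). The stretch before its first annotated start is shown because Dab2 is the member whose change passed the test, and that before Pdgfra because Pdgfra is an early primitive endoderm marker that was higher in the same libraries. Both come from RefSeq (GRCm38.p6) and are written 5′ to 3′ on the plus strand, with capitals marking the letters GATAA, the core that GATA factors bind, on either strand (GATAA or TTATC). The Dab2 stretch is chr15:6299539-6299787 and the Pdgfra stretch chr5:75152001-75152250.
Dab2: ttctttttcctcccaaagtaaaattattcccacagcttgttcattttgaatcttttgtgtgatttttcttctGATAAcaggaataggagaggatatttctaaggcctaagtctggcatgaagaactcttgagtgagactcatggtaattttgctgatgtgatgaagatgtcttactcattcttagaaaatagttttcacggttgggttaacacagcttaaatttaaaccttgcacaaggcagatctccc
Pdgfra: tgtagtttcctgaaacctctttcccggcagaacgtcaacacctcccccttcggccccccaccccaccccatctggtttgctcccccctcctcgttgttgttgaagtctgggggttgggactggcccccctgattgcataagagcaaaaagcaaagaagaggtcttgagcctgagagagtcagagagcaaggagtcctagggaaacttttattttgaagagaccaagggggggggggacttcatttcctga

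The Dab2 stretch holds the letters once and the Pdgfra stretch does not hold them. A second Dab2 start, with its upstream window at chr15:6386498-6386747, has 17 CpG pairs and no GATAA, against 2 CpG pairs before the first start and a median of 6 over all 32851 promoter windows of 250 bases. The count table does not separate transcripts from these starts. GATAA was found in 7 of 30 windows of the 21 members with an entry, and in 22.6% of all windows. The letters ATTGT or ACAAT, the core of SOX sites, were in 3 of the 30 windows and in 27.7% of all. These matches are a description of letters and not of binding. Gata4, Gata6, Sox7, Sox17, Lama1, Lamc1, Ttr, Krt19, Thbd and Plat had no entry.

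Among the transcription factors in the Ssrp1 experiment, 5 of 7 could be tested and 0 passed; the 4 with positive changes had unadjusted p below 0.05. Gata6, which initiates the primitive endoderm program, was counted 4 and 26 times in the controls, then 124 and 60 times in the libraries labelled knockout. Its mean level was 0.868 ± 0.856 CPM against 5.725 ± 3.44 CPM (SD, n = 2 each). The groups did not overlap, but the libraries within each group differed widely, and the log2 change of 2.69 (SE 0.815) missed the threshold (edgeR adjusted p = 0.099). Leaving out control replicate 1 gave 1.935, control replicate 2 4.39 and knockout replicate 1 1.84. With knockout replicate 2 left out it was 3.19, in a fit with 1 knockout library and so no spread within the knockout.

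Gata4 (chromosome 14, 63198922 to 63271692), a GATA factor of the committed layer and later of heart and gut, was counted 17 and 33 times in the controls and 80 and 97 times in the libraries labelled knockout. Its 2 knockout libraries lay close together and clear of the controls, at 1.49 ± 0.533 against 5.29 ± 0.0422 CPM, with a log2 change of 1.82 (SE 0.59, edgeR adjusted p = 0.12). Sox17 (chromosome 1, 4490931 to 4497354), an endoderm SOX factor, rested on 4 and 6 control counts against 38 and 33 in the libraries labelled knockout, with no overlap. It had the lowest adjusted p of the transcription factors, at a log2 change of 2.8 (SE 0.72, edgeR adjusted p = 0.058). Foxa1, a forkhead pioneer factor of endoderm, had 2 and 9 counts against 24 and 57, a log2 change of 2.82 (SE 0.81, edgeR adjusted p = 0.084). Its value was 2.17 without control replicate 1, 4.07 without control replicate 2 and 2.23 without knockout replicate 2.

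Not every endoderm factor was higher. Hnf4a, the nuclear receptor of visceral endoderm and liver, was the most abundant transcription factor member in the controls (1.13 CPM per kb of exon) and lay lower in both libraries labelled knockout, with 69 and 112 counts against 49 and 51 (log2 change -0.85, SE 0.54, edgeR adjusted p = 0.45). Sox7, which follows Sox17 in the committed layer, was too low to judge, with 5 and 9 counts against 17 and 7. Foxa2, a marker of visceral and definitive endoderm, had 0 and 2 counts in the controls and 1 in each library labelled knockout.

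In the Usp7 knockdown 5 of the 7 factors could be tested and 0 passed. Gata4 was counted 55 and 58 times in the controls and 93 and 164 times in the knockdown, a level of 3.32 ± 0.117 against 7.08 ± 2.72 CPM (log2 change 1.09, SE 0.35, edgeR adjusted p = 0.15). Foxa1 had 7 counts in each control and 17 and 28 in the knockdown (log2 change 1.575, SE 0.58, edgeR adjusted p = 0.2). For both genes the groups did not overlap, and neither gene passed the test. Gata6 had 17 and 36 counts against 26 and 51, so its groups overlapped (log2 change 0.44, SE 0.51), and the change was 1.07 without Usp7 control replicate 2 and -0.11 without knockdown replicate 2. Hnf4a was higher in both knockdown libraries, with 167 and 161 counts against 292 and 207 (log2 change 0.51, SE 0.26, adjusted p = 0.35). Sox7 had 12 and 13 counts against 18 and 32 (log2 change 0.9, SE 0.53, adjusted p = 0.43). Sox17 was too low to judge at 3 and 12 against 1 and 3 counts, and Foxa2 stayed at 1 to 4 counts in every Usp7 library.

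The signalling members were led by Dab2. It had 9 and 22 counts in Ssrp1_Control and 82 and 149 in Ssrp1_KO, a level of 0.918 ± 0.463 against 6.79 ± 1.97 CPM (n = 2 each). Both libraries labelled knockout were above both controls, and the log2 change was 2.87 (SE 0.64, edgeR adjusted p = 0.035). The call ended without control replicate 1 (log2 change 2.42, edgeR adjusted p = 0.48) and without control replicate 2 (3.485, adjusted p = 0.083). In the knockdown Dab2 was higher in both libraries, with 40 and 31 counts against 89 and 75, and did not pass the test (log2 change 1.11, SE 0.37, edgeR adjusted p = 0.15).

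Pdgfra, the PDGF receptor that supports survival of primitive endoderm, had 20 and 27 counts in Ssrp1_Control and 112 and 66 in Ssrp1_KO (chromosome 5, 75152292 to 75198215). The knockout libraries were clear of the controls, with a log2 change of 1.94 (SE 0.62, edgeR adjusted p = 0.11), which was 1.285 without knockout replicate 1. Its groups overlapped in the Usp7 experiment, at 32 and 45 against 41 and 50 counts (log2 change 0.15, SE 0.4). Leaving out Usp7 control replicate 2 gave 0.402 and replicate 1 -0.0704.

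The other signalling genes were low. Cited1, a CBP-binding coactivator, had 8 and 20 counts against 16 and 45 in the Ssrp1 experiment and 14 and 6 against 26 and 22 in the Usp7 experiment, with log2 changes of 1.08 (SE 0.72) and 1.16 (SE 0.57). Cxcr4, a chemokine receptor of definitive endoderm, overlapped between groups in both experiments. Pth1r, the parathyroid hormone receptor of parietal endoderm, had log2 changes of -0.59 (SE 0.65) and 0.34 (SE 0.42). The Wnt inhibitor gene Dkk1 had 4 and 1 counts in Ssrp1_Control and 18 and 7 in Ssrp1_KO. Ihh, the hedgehog ligand of visceral endoderm, had 14 and 7 counts against 5 and 1. For Usp7, Ihh had 13 and 9 against 17 and 24 (log2 change 0.8, SE 0.54, edgeR adjusted p = 0.51).

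The basement membrane genes were the abundant members and all 6 were tested in both experiments. Sparc, a collagen-binding matrix protein, and Lamc1, the laminin gamma chain, led per kb of exon, with 42.6 and 32.3 CPM per kb in Ssrp1_Control and 42.3 and 58.1 in Usp7_Control. Lamb1 followed with 8.15 and 9.255 CPM per kb. These genes, which stem cells are known to express, made up 535.1 of the 560.7 CPM summed over all 31 members in Ssrp1_Control replicate 1.

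Sparc (chromosome 11, 55394500 to 55423183) had 171.3 and 151.2 CPM in Ssrp1_Control against 270 and 333.7 CPM in Ssrp1_KO. It had 169.5 and 150.9 CPM in Usp7_Control against 278.8 and 269.3 CPM in Usp7_KD. The targeted libraries were above the controls in both experiments, by log2 changes of 0.9 (SE 0.27, edgeR adjusted p = 0.094) and 0.77 (SE 0.19, adjusted p = 0.051). The difference between these changes was 0.08 (SE 0.3, adjusted p = 0.94), which does not show that they are equal. In the knockdown Sparc was called with DESeq2 (adjusted p = 0.006), with a correction for GC content and length (0.008), and without either control library (0.021 and 0.0048). It was not called without a filter (0.17), in the joint fit (0.2), or without knockdown replicate 1 (0.46) or 2 (0.75).

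Col4a1 and Col4a2 encode the chains of the main collagen IV trimer and lie head to head on chromosome 8, at 11198423 to 11312826 on the minus strand and 11312805 to 11449287 on the plus strand. Their annotated ends overlap by 22 bases. Col4a1 had 11 and 19.6 CPM in Ssrp1_Control against 30.2 and 55 CPM in Ssrp1_KO, a log2 change of 1.48 (SE 0.4, edgeR adjusted p = 0.072). Col4a2 had 5.12 and 6.97 CPM against 13.3 and 21.8 CPM, a log2 change of 1.535 (SE 0.44, edgeR adjusted p = 0.083). Both genes were higher by a similar amount, and replicate 2 was the higher library of each group for both. Both were called with DESeq2 (adjusted p = 0.018 and 0.017). Neither was called without knockout replicate 2, at log2 changes of 0.976 and 1.13, or without either control library. Under the knockdown the log2 changes were 0.29 (SE 0.22) for Col4a1 and 0.14 (SE 0.28) for Col4a2, and the latter was -0.14 without Usp7 control replicate 1. Col4a1 was above both controls in both knockdown libraries, at 27.55 and 27.29 against 18.97 and 25.77 CPM, and Col4a2 overlapped.

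The laminin chains had smaller values. Lamc1 had 245.6 and 289.4 CPM in Ssrp1_Control against 281.9 and 253.6 CPM in Ssrp1_KO, with a log2 change near 0 (0.0012, SE 0.27), whose sign turned with the scaling. Lama1 and Lamb1 changed by 0.24 (SE 0.29) and 0.29 (SE 0.29) there. Lama1 was above both controls in both libraries labelled knockout, at 39.74 and 40.72 against 35.84 and 32.23 CPM, and Lamb1 overlapped. In the knockdown both lay below their controls in both libraries, by -0.27 (SE 0.2, edgeR adjusted p = 0.53) for Lama1 and -0.41 (SE 0.19, adjusted p = 0.31) for Lamb1. Lamb1 had 83.4 and 100.1 CPM in Usp7_Control and 62.7 and 75 CPM in Usp7_KD. Lamc1 had 409.8 and 550.7 against 460.9 and 501.3 CPM (log2 change 0.0025, SE 0.22). None of the laminin members passed the test in either experiment.

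**Figure D2:**
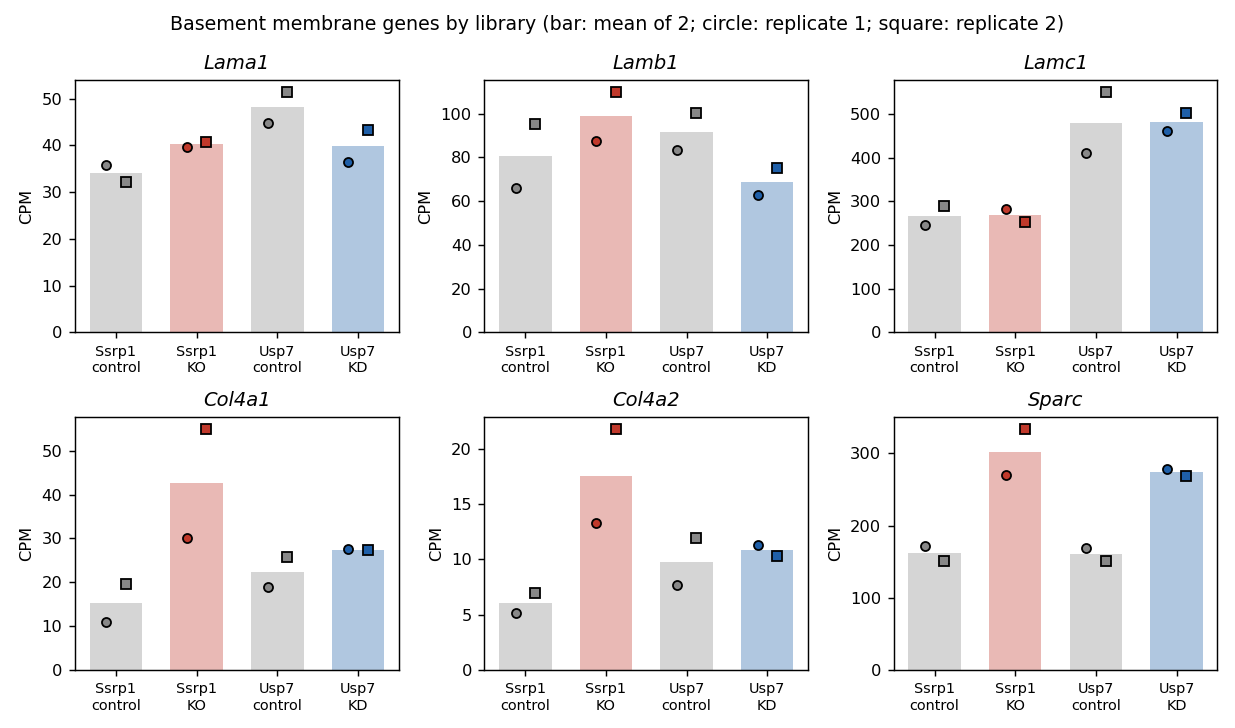
CPM of the 6 basement membrane members in each library of the 4 groups; bars are means of 2 libraries, circles replicate 1 and squares replicate 2. Lama1, Col4a1, Col4a2 and Sparc are above the controls in both Ssrp1 knockout libraries. Col4a1 and Sparc are above them in both Usp7 knockdown libraries, and Lama1 and Lamb1 below them. Lamc1 overlaps in both experiments.

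The visceral endoderm genes gave little signal. Transcripts of Afp and Ttr, alpha-fetoprotein and transthyretin, were at 0 counts in 7 of 8 libraries each, Afp having 1 count in knockout replicate 1 and Ttr 7 in knockdown replicate 2. Apob, the apolipoprotein B gene, had 9 and 12 counts in Usp7_Control and 31 and 40 in Usp7_KD, so the groups did not overlap (log2 change 1.65, SE 0.5, edgeR adjusted p = 0.12). Apob was too low to judge in the Ssrp1 experiment, at 4 and 6 against 2 and 7 counts. Apoa1 had 9 and 6 against 1 and 3 counts there, and 5 and 2 against 0 and 0 in the Usp7 experiment. Cubn and Amn encode the subunits of the cubam receptor, which takes up vitamin B12 and proteins. Cubn had 10 and 35 against 36 and 48 counts in the Ssrp1 experiment (log2 change 0.91, SE 0.68), without overlap, and was too low to judge in the other. Amn overlapped between groups in both experiments, with log2 changes of 0.42 (SE 0.63) and -0.84 (SE 0.52).

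Of the parietal and epithelial members, Srgn, the proteoglycan serglycin, had 10 and 24 counts in Ssrp1_Control and 59 and 40 in Ssrp1_KO (log2 change 1.57, SE 0.67, edgeR adjusted p = 0.25). With Usp7 it had 17 and 18 against 3 and 9 counts (log2 change -1.62, SE 0.65, edgeR adjusted p = 0.24). Leaving out Ssrp1 control replicate 2 gave 2.18 for the first and leaving out Usp7_KD replicate 2 gave -2.58 for the second. Srgn was thus above its controls in one experiment and below them in the other, and neither change passed the test. Krt19, an epithelial keratin, had 112 and 183 counts in Ssrp1_Control against 34 and 313 in Ssrp1_KO, so replicate 1 lay below both controls and replicate 2 above both. Its log2 change of 0.14 (SE 0.72) became -1.99 without knockout replicate 2, which leaves 1 knockout library. In the knockdown Krt19 was lower in both libraries, at 92 and 140 against 66 and 70 counts (log2 change -0.86, SE 0.33, edgeR adjusted p = 0.22). Plat, tissue plasminogen activator of parietal endoderm, had 12 and 11 against 13 and 73 counts (log2 change 1.79, SE 0.8, edgeR adjusted p = 0.27). The change was 0.28 without knockout replicate 2 and 2.44 without replicate 1. Thbd, thrombomodulin, had at most 15 counts in any library and was too low to judge in the Ssrp1 experiment. For Usp7 it had 1 and 8 against 15 and 10 counts, without overlap (log2 change 1.36, SE 0.8, edgeR adjusted p = 0.43). Fxyd3, an ion pump regulator, had 0 and 1 counts in Ssrp1_Control and 2 and 10 in Ssrp1_KO, a ratio of 11.8 (exact 95% binomial interval 1.75 to 505, counting error only).

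Read across the members, 1 of the 21 tested in the Ssrp1 experiment was called (4.76%), against 3.71% of all 15757 genes tested, 3.39% higher and 0.324% lower. That share is near the background and is not a result about the members. At an unadjusted p under 0.05, 11 of the 21 were higher and 0 lower, where 13.3% of all genes were higher and 4.95% lower. Both libraries labelled knockout lay above both controls for 13 of the 21 and below for 2 (Hnf4a and Pth1r), against 27.3% and 22.7% of all genes tested. The median log2 change was 1.08 over the 21 and 0.03 over all genes tested. These figures carry the filter effect given above, and the members were chosen with earlier results of these data known. Of the 16 members with at least 10 counts in both controls, 9 lay higher. The share of all genes under that rule was not computed, so the 9 have no matched background. Leaving out libraries and other settings moved the number called between 0 and 8, with 0 without either control library and 7 without either knockout library.

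Of the 22 members tested in the Usp7 experiment 0 were called, against 2.99% of 15915 genes (2.36% higher and 0.628% lower). At an unadjusted p under 0.05 by the same edgeR test, 5 were higher (Gata4, Foxa1, Dab2, Sparc and Apob) and 2 lower (Srgn and Krt19), against 9.52% and 7.18% of all genes. DESeq2 called 1, Sparc. The libraries did not overlap for 11 higher and 4 lower members, against 24.6% and 23.4% of all genes. The median log2 change was 0.39 over the 22 and -0.02 over all genes. Foxa1, Ihh, Cited1, Apob and Thbd had fewer than 10 counts in a control library and met the filter mostly through the knockdown libraries, so these figures also favour higher values. Of the 17 members with at least 10 counts in both controls, 6 lay higher, and the share of all genes under that rule was not computed. The choice of members with earlier results known also bears on these figures.

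**Figure D3:**
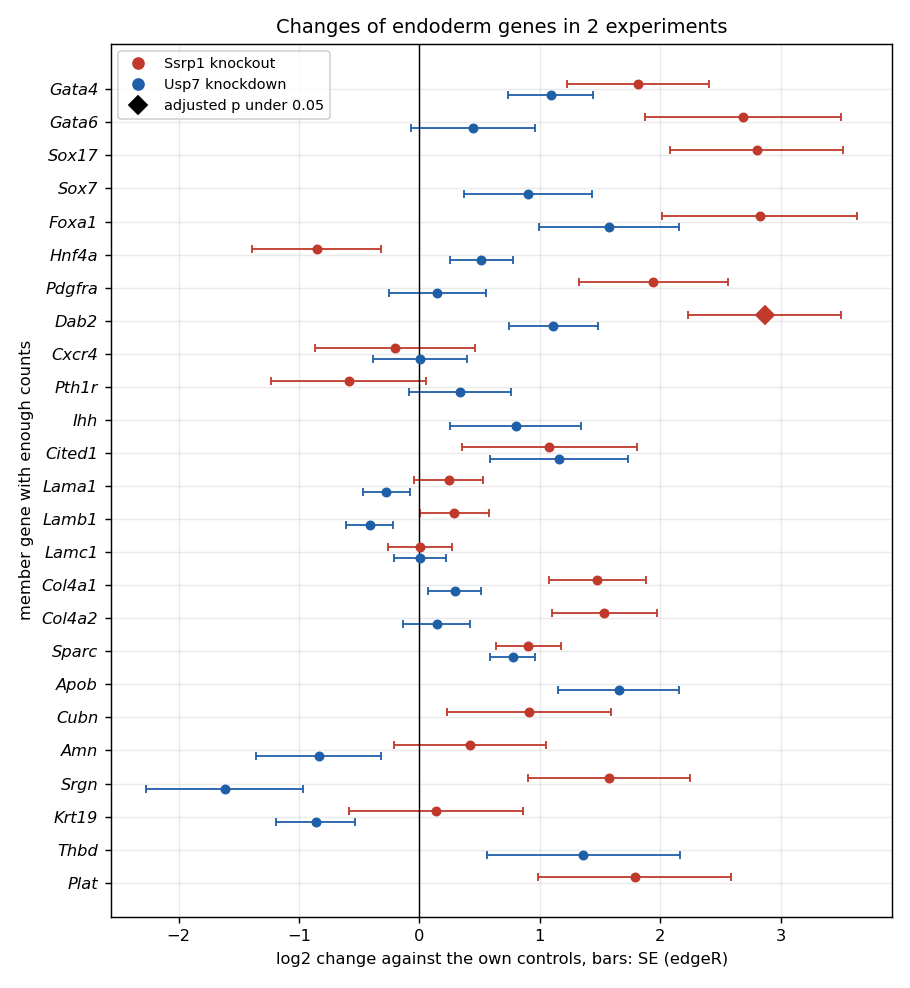
Log2 changes of the tested members against their own controls, with SE bars from the edgeR fit, red for the libraries labelled Ssrp1 knockout and blue for the Usp7 knockdown; a diamond marks an adjusted p under 0.05. Dab2 in the Ssrp1 experiment is the single diamond, and Srgn and Hnf4a are among the members on opposite sides of 0 in the 2 experiments.

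A fit over all 8 libraries tested, for each member, the Ssrp1 log2 change less the Usp7 log2 change; the experiments share no controls. Of 24 members tested, 0 were called, against 1.00% of 17052 genes (0.610% higher and 0.393% lower). At an unadjusted p under 0.05 in edgeR 6 were higher and 2 lower, against 9.19% and 5.95% of genes, and DESeq2 called 0. Sox17 met the count filter of this fit through the libraries labelled knockout. These counts thus carry a filter effect too, and the members were chosen with earlier results of these data known. Sox17 had the largest difference, 4.68 (SE 1.185, edgeR adjusted p = 0.095), on few counts, and 3.38 without Usp7 control replicate 2. Srgn followed with 3.15 (SE 0.93, edgeR adjusted p = 0.14). For Gata6 the difference was 2.2 (SE 1.04), for Pdgfra 1.74 (SE 0.68), for Dab2 1.71 (SE 0.67), for Col4a2 1.34 (SE 0.5) and for Col4a1 1.14 (SE 0.48). Each of these was larger in the knockout experiment and none passed the test (adjusted p = 0.23 to 0.35). The 2 lower members were Ihh, with a difference of -2.64 (SE 1.15, edgeR adjusted p = 0.31) on few counts, and Hnf4a, with -1.41 (SE 0.49, edgeR adjusted p = 0.2).

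The 2 libraries labelled knockout differed in which members stood highest. Relative to the control mean, Gata6 was 9.4 times as high in replicate 1 and 3.8 times in replicate 2, and Pdgfra 5.19 and 2.55 times. Sox17 and Srgn were also higher in replicate 1, at 8.3 against 6.01 times and 3.85 against 2.18 times. The order was the other way for Plat at 1.21 and 5.68 times, Krt19 at 0.253 and 1.94 times and Foxa1 at 4.93 and 9.76 times. Dab2, at 5.87 and 8.9 times, and the collagen IV genes were higher in replicate 2 as well, while Gata4 was equal at 3.53 and 3.57 times. With 1 library of each kind these differences have no replicate check. Replicate 2 is the library with the lower Ssrp1 transcript and the higher 2-cell-like sum, and replicate 1 has the higher mitochondrial share; their part was not tested.

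**Figure D4:**
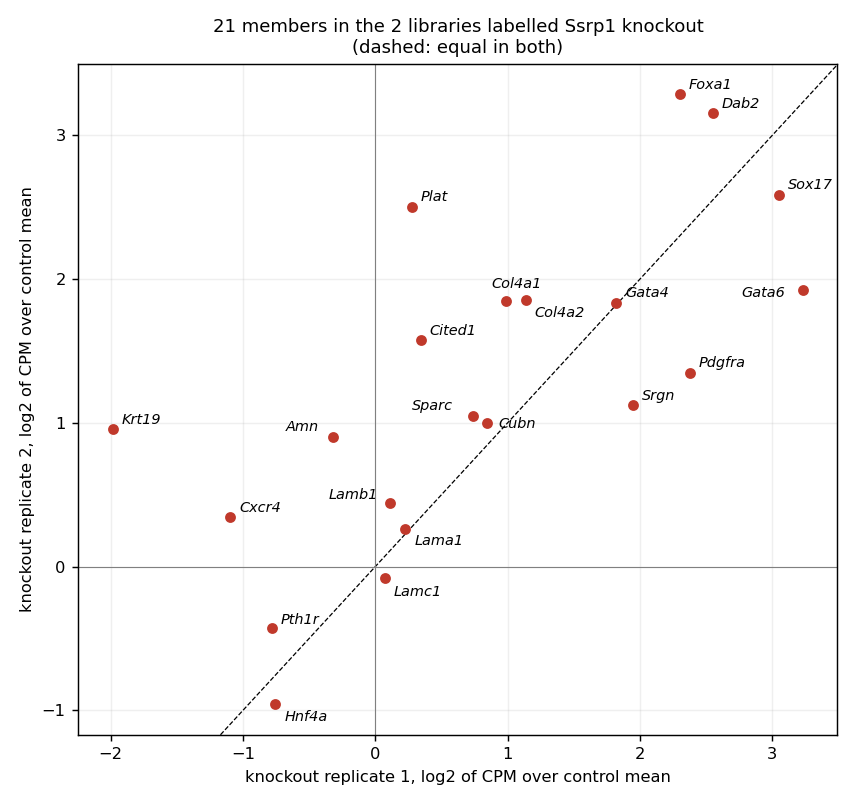
Each point is 1 of the 21 members tested in the Ssrp1 experiment, placed by its CPM over the control mean, on a log2 scale, in knockout replicate 1 (horizontal) and replicate 2 (vertical). Gata6, Pdgfra, Sox17 and Srgn lie below the dashed line of equality, and Plat, Krt19, Foxa1, Dab2 and the collagen IV genes above it.

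The control libraries of the Ssrp1 experiment also differed. Control replicate 2 was above replicate 1 for 18 of the 21 tested members (85.7%), against 54.9% of all genes tested. Gata6 had 4 and 26 counts and Col4a1 167 and 346 counts in replicates 1 and 2. In Usp7_Control replicate 2 was above replicate 1 for 14 of 22 members (63.6%), against 50.8% of genes. The same held for 15 of 21 members in Ssrp1_KO (71.4%, against 50.9% of genes). In Usp7_KD it held for 13 of 22 (59.1%, against 49.6%). Without Ssrp1_Control replicate 1 the log2 change of Col4a1 was 1.1 in place of 1.48.

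Other genes of the pathway were taken from lists of related genes. In the Ssrp1 experiment, of 22 genes of FGF and ERK signalling, all tested, 0 were called by edgeR and 1 was higher and 1 lower at an unadjusted p under 0.05 (median log2 change -0.01). That median does not show that these genes were unchanged, because the knockout libraries differed. Egr1 had 51.9 CPM in replicate 1 and 4.77 CPM in replicate 2 (controls 19.9 and 17.8). Dusp6 had 77.9 and 15.8 CPM (controls 44.2 and 46.2), and Spry4 210.1 and 23.4 CPM (controls 221.5 and 191.2). Fgf4 differed the other way, at 180.7 and 329.6 CPM. Fgf4, the ligand, had 260.8 ± 38.8 CPM in Ssrp1_Control and 255.2 ± 105 CPM in Ssrp1_KO (adjusted p = 0.97). Fgfr2, the receptor of primitive endoderm precursors, had 4.36 ± 1.44 and 3.735 ± 0.0722 CPM (adjusted p = 0.88). Of 30 other endoderm genes 17 were tested and 0 called, with 1 higher and 1 lower at an unadjusted p under 0.05. Of 30 other basement membrane genes 25 were tested and 0 called, with 3 higher and 1 lower at that p (median 0.17). Over all genes tested 3.71% were called, and 13.3% were higher and 4.95% lower at that p.

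In the Usp7 knockdown each of these lists held 1 called gene. Over all 15915 genes tested 2.99% were called, and 1 called gene per list is not read as a result about the list. Egr1, an immediate early target of ERK, fell 2.87-fold, from 106.1 ± 16.1 to 36.9 ± 22.7 CPM (edgeR adjusted p = 0.042), 1 of 22 FGF and ERK genes. Fgf4 and Fgfr2 did not pass the test, at log2 changes of -0.37 (SE 0.18) and 0.81 (SE 0.35). Serpinh1, the collagen chaperone Hsp47, rose 2.07-fold, from 48.5 ± 15.6 to 100.5 ± 7.07 CPM (edgeR adjusted p = 0.037), 1 of 27 tested other basement membrane genes (median 0.1). Clic6, a chloride intracellular channel gene, rose 8.27-fold on 2 and 3 control counts against 19 and 27 (edgeR adjusted p = 0.039), 1 of 13 tested other endoderm genes (median -0.02). It met the count filter through the knockdown libraries.

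Markers of other cell types moved in part with these genes. Of 12 trophoblast genes 8 were tested in the Ssrp1 experiment and 2 rose, the homeobox gene Esx1 at 5.96-fold (edgeR adjusted p = 0.02) and Gata3, with 1 control count in all, at a count ratio of 28.5 (edgeR adjusted p = 0.043; exact 95% interval 4.73 to 1166, counting error only). At an unadjusted p under 0.05, 4 of the 8 were higher and 0 lower, and their median log2 change was 1.37, beside 1.08 over the tested members. Of all genes tested 3.39% rose, and 13.3% were higher and 4.95% lower at that p. The summed level of the 12 genes was 78 and 81.6 CPM in Ssrp1_Control and 102.6 and 168.5 CPM in Ssrp1_KO. Gata3 met the count filter through the libraries labelled knockout, so counts over the tested trophoblast genes also favour higher values. Under Usp7 knockdown 1 of 9 rose, the keratin gene Krt7, at 5.88-fold on 5 and 5 control counts against 29 and 35 (edgeR adjusted p = 0.037). The sums were 59.9 and 73.7 against 83.1 and 83 CPM, and 5 were higher and 2 lower at an unadjusted p under 0.05 (median 0.73). Of all genes tested there 2.36% rose, and 9.52% were higher and 7.18% lower at that p. Krt7, Cdx2 (8 and 7 against 21 and 42 counts) and Gata3 (4 and 2 against 13 and 21) met the count filter through the knockdown libraries. The trophoblast counts there thus favour higher values. None of the 7 tested fibroblast genes of 15 was called by edgeR in either experiment, with 0 and 1 at an unadjusted p under 0.05. Their sums were 31 and 36.8 against 29.6 and 63 CPM in the Ssrp1 experiment and 37.5 and 46.6 against 39.1 and 47.9 CPM in the Usp7 experiment. Of 12 mesoderm and cardiac genes, 0 of 5 and 0 of 8 tested were called by edgeR (0 and 1 at an unadjusted p under 0.05), with sums of 7.925 to 12.2 CPM over all libraries. The 8 hepatocyte genes were all too low to judge, with sums of at most 0.7045 CPM. Among 18 pluripotency genes, Tcl1 fell 2.41-fold in the Ssrp1 experiment (edgeR adjusted p = 0.038), 0 were called in the knockdown (1 higher and 4 lower at an unadjusted p under 0.05), and Pou5f1 and Nanog passed the test in neither. The part of these cell types in the endoderm changes was not tested.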

How the data were processed

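RNA-seq was compared in 8 libraries of mouse E14 cells, in 4 groups of 2 taken from the sample titles. The 2 deposited tables hold read counts for each gene, unnormalized as judged from their whole numbers and unequal totals, made with cutadapt, HISAT2 and featureCounts on mm10, per the submitters' processing notes. The sources used here give no versions, annotation release or strand mode, so overlapping and antisense genes may share counts. All 92 spike-in rows were 0 and were left out.

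Symbols, coordinates and exon lengths came from GENCODE (GRCm38), and promoter windows from RefSeq. The 4 libraries of an experiment were fitted without those of the other (edgeR 4.0.16, R 4.3.3): filterByExpr with its minimum count of 10, TMM scaling, the quasi-likelihood F test and Benjamini-Hochberg adjustment over all genes. Standard errors were derived from the fold change and F. CPM values use the TMM-scaled library size, and CPM per kb divides by exon length. Alternatives were DESeq2 1.42.0, its size factors, no filter, a joint fit, a replicate block, leaving out each library (the lone library of a group is then assumed to vary like the other group), and offsets from a smooth fit on GC content and length.

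Members and lists were chosen with earlier results of these data known. Per-library values are given for members called or with an unadjusted p under 0.05, and always for Gata4, Gata6, Sox17, Sox7, Foxa2, Pdgfra, Dab2 and the basement membrane members; from other lists, up to 4 called genes are named. Of 12 listed 2-cell-like genes, 11 matched the annotation. For the self-test, 200 genes with an average log2 CPM above 1 were changed in simulated data. Each gene was given the spread of the fitted trend at its level and no spread of its own. Recovery may thus be lower for genes that vary more than the trend. At log2 changes of 1, 2 and 3 the Ssrp1 simulation (15757 genes) recovered 19.4%, 76.1% and 93.9%, and the Usp7 simulation (15915 genes) 59.7%, 97% and 100%, with 7 false calls each.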

Additional observations from a re-analysis of the deposited data

How the results depend on the processing

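The number of genes called in the Ssrp1 experiment, 585, was 1089 with DESeq2, 1497 with the filter off, 300 with the GC and length correction and 1314 in the joint fit, and 20 to 1884 with a library left out. The members called, 1, were then 5, 7, 2 and 8, and 0 to 7. In the Usp7 experiment 476 genes became 100 without a filter, 773 with the GC and length correction, 78 in the joint fit and 42 to 3770 with a library left out. Its 0 members became 1 with DESeq2 and 1 with the correction (Sparc both times), and 0 to 4 with a library left out. For the difference between experiments 171 genes became 649 with DESeq2, 945 with the filter off and 1 to 1109 with a library left out, and 0 members became 2 without a filter and 0 to 2.

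Deviations of same-numbered libraries correlated at 0.184 (Ssrp1) and 0.144 (Usp7) over 2 pairs, too few to show pairing. With the replicate number as a block, 988, 1471 and 525 genes and 5, 4 and 1 members were called in the Ssrp1, Usp7 and difference tests, and Krt19 turned to -0.42 in the Ssrp1 experiment.

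Signs turned for Lamc1, near 0 throughout: in the Ssrp1 experiment -0.035 with DESeq2 size factors, -0.032 with the filter off, -0.046 in the joint fit and -0.047 with DESeq2, in the Usp7 experiment -0.0061 with the size factors, -0.0094 with the filter off, -0.011 with DESeq2 and, with the correction, -0.049, and 0.19 for the difference with the correction. With a library left out, ranges crossed 0 for Lamc1 (-0.14 to 0.104, -0.19 to 0.22 and -0.301 to 0.12 in the Ssrp1, Usp7 and difference tests), Krt19 (-1.99 to 0.898 for Ssrp1, -1.2 to 1.75 for the difference), Gata6 (-0.11 to 1.07), Pdgfra (-0.0704 to 0.402) and Col4a2 (-0.14 to 0.49) for Usp7, and Sox7 (-1.1 to 0.42), Sparc (-0.11 to 0.21) and Plat (-0.403 to 1.915) for the difference. The causes were not tested. In the Ssrp1 experiment Dab2 kept its call outside the 2 settings that leave out a control, and Gata4, Gata6, Sox17, Foxa1, Pdgfra, Col4a1, Col4a2 and Sparc stayed higher in all settings. Most transcription factor members lay below the levels simulated, so power for them is not known.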
